A study of Rattus norvegicus with 16 samples.

Results

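The Id genes (Id1, Id2, Id3 and Id4) were followed in rat cortex after a contusion, as 4 of the 14218 genes measured. They were found as the probe sets whose only gene symbol is an Id gene, which gave 1 probe set for Id1, 2 for Id2, 1 for Id3 and 4 for Id4. The family was chosen by the low value of Id3 at 3 h after injury. Values of the 3 h comparison are therefore given as a description without a test, and the question is whether the other members follow Id3 in direction and in time.

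Male Wistar rats aged 8 weeks had a craniectomy over the right parietal cortex and recovered for 48 h. They then received either a moderate lateral fluid percussion (a fluid pressure pulse against the dura) or a sham procedure, so the sham animals carry the craniectomy too. Polyadenylated RNA of the lateral cortex at the contusion was hybridised to Affymetrix rat arrays after perfusion with saline. The injured groups were 3 arrays each at 3, 6, 12 and 48 h. The control for 3, 6 and 12 h was a group of 3 early shams (1 array each from 3, 6 and 12 h), and the control for 48 h was a single 48 h sham. That split follows the study's own description. The labels do not say whether arrays are separate animals, so p-values measure the spread between arrays, which may be technical.

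Id proteins are helix-loop-helix proteins without the basic region that contacts DNA. They pair with E proteins (Tcf3, Tcf4 and Tcf12) and so keep tissue-specific helix-loop-helix factors off the DNA, which holds precursor cells back from differentiation. Id1, Id2 and Id3 are classical targets of bone morphogenetic protein (BMP) signalling through Smad1, Smad5 and Smad9. In mouse brain Id1 and Id3 are known from blood vessels, astrocytes and stem cells, Id4 from astrocytes and neural precursors, and Id2 from neurons and precursors.

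The bases ahead of the annotated RefSeq gene (GRCr8 build, 5′ to 3′ on the gene's strand) are shown for Id1 and Id3, which were low together, and for Id2, which was not. Capitals mark TATAAA, the TATA box, and CCAAT on either strand.
Id1, chr3:161671314-161671524, plus strand: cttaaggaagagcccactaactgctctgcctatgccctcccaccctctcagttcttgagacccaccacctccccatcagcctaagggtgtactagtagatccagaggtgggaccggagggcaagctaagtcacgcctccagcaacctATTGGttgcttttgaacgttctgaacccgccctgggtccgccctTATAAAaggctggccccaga
Id3, chr5:153656041-153656252, plus strand: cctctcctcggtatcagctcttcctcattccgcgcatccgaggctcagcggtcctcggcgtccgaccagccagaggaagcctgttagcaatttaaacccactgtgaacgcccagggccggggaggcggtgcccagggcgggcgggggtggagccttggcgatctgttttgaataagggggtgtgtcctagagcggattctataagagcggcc
Id2, chr6:47470996-47471245, minus strand: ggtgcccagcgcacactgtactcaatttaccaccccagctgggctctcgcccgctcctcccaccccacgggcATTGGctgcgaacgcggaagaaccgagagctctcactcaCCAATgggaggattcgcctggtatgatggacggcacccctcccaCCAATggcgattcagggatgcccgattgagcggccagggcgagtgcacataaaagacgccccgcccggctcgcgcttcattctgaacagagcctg
Matches were counted over the first 250 bases of each promoter window. For Id1 and Id3 only 211 and 212 of these lie ahead of the annotated gene, and the rest lie inside it. CCAAT had 1 match in Id1, 3 in Id2 and 0 in Id3 and Id4, where 34.3% of 27457 rat promoters had a match. TATAAA matched once in Id1 and in none of the other members (13.1% of promoters). The Smad-related letters GGCGCC (9.24%) and GTCTG (42.8%) and the cyclic AMP response letters TGACG (19%) had no match in any of the 4 windows. The E-box CANNTG, the site of the factors that Id proteins hold back, had 1 match in Id1 and 1 in Id2 (65.2%). The match in Id1 does not lie within the 211 bases ahead of the gene. The sequence is not shown for Id4, whose annotated start is its first ATG.

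The deposited values are log intensities with each probe set's median over the 16 arrays subtracted, read here as log2. A value of 0 is thus the middle of the 16 arrays, and neither the level of one Id gene against another nor its presence can be read. The same holds for checking the tissue label against markers. The SD over genes ran from 0.199 to 0.387 per array, widest in injured 48 h replicate 2 and injured 12 h replicate 2, where it was 0.372. That 12 h array also stood apart in its polyadenylated spike-in controls, at -1.69 over 24 probe sets, against -0.18 to 0.49 in the other 15 arrays. In bulk tissue, fewer cells of a type and less RNA per cell cannot be told apart.

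**Figure D1:**
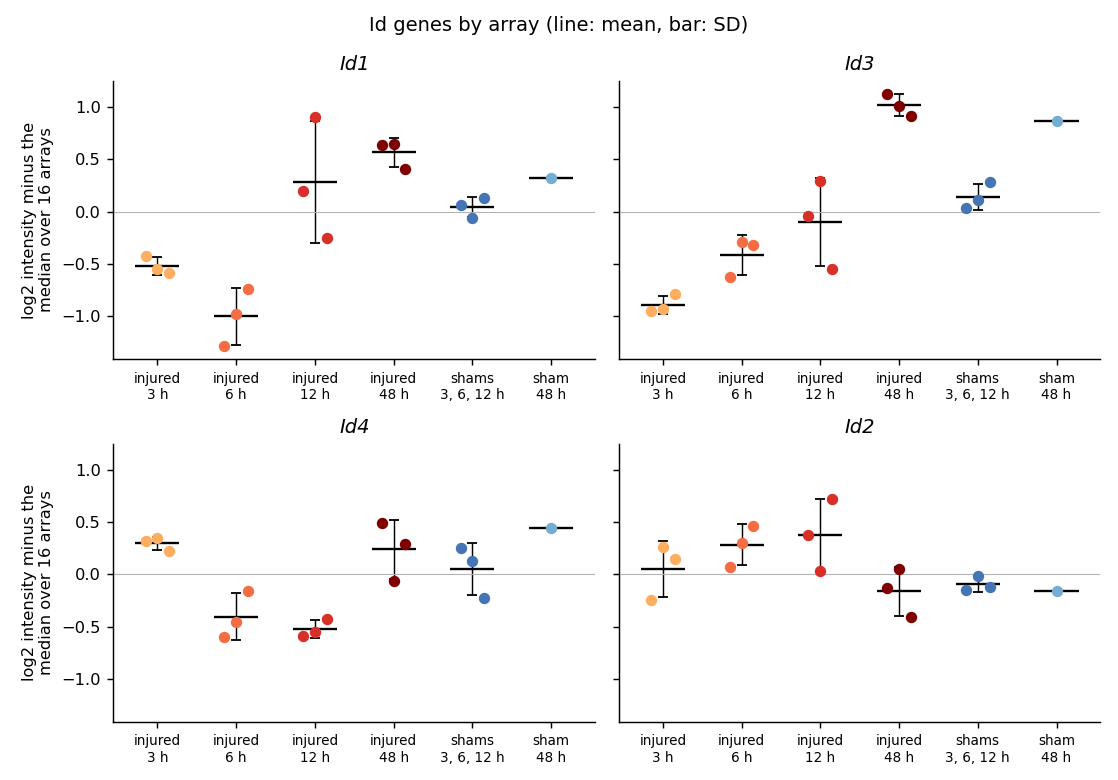
Each point is 1 array, given as the log2 intensity minus the median over the 16 arrays (vertical axis), for the injured groups at 3, 6, 12 and 48 h, the 3 early shams and the 48 h sham (horizontal axis). Lines are means and bars are SDs of 3 arrays. Id1 and Id3 lie low at 3 and 6 h and high at 48 h, Id4 lies low at 6 and 12 h, and Id2 has no injured group wholly below the early shams.

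At 3 h Id1 and Id3 lay below the shams while Id4 and Id2 did not. Id3 read -0.95, -0.93 and -0.79 in the injured arrays, against 0.04, 0.11 and 0.28 in the early shams. Id1 read -0.42, -0.55 and -0.59 in the injured arrays, against 0.06, -0.06 and 0.13 in the early shams. In both genes every injured array was below every sham, with differences of -1.03 ± 0.16 for Id3 and -0.56 ± 0.22 for Id1 (log2, SE of a limma model over all 16 arrays, n = 3 each). Id4 stood at 0.32, 0.34 and 0.23 in the injured arrays, against 0.26, 0.13 and -0.23 in the shams, a difference of 0.24 ± 0.15 with overlapping groups. Id2 differed by 0.15 ± 0.17, also with overlap. Over all 14218 genes 10.3% had 3 injured arrays all below the 3 shams and 0.584% were called at an adjusted p under 0.05. Since this contrast chose the family, nothing is read from the members' count. Meningeal markers were low in the same arrays, with a list mean from -0.38 to -0.25 in the injured arrays, against 0.12 to 0.66 in the early shams, and choroid plexus markers were high, from 0.19 to 1.22, against -0.08 to -0.04. Erythrocyte markers (3 measured) ran from 0.24 to 0.75 in the injured arrays, against -1.01 to -0.40 in the shams, and neuron markers from -0.001 to 0.07, against 0.10 to 0.20. In the choroid plexus list the gene Ttr differed by 4.24 ± 1.19, while the median difference over the 6 genes measured was 0.21. Over the 3 erythrocyte genes the median difference was 0.36. The endothelial list overlapped the shams, from -0.08 to 0.245 in the injured arrays, against -0.07 to 0.17. Of its 14 measured genes, 8 were above 0 and 6 below, with a median difference of 0.10. The astrocyte list overlapped too, from -0.08 to -0.02 in the injured arrays, against -0.03 to 0.02, with a median difference of 0.02. The part of these cell types in the values of Id1 and Id3 was not tested.

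At 6 h Id1 fell, and it was the member that passed the test. It read -1.29, -0.98 and -0.74 in the injured arrays, against 0.06, -0.06 and 0.13 in the early shams. This is 2.07-fold lower than in the shams (log2 -1.05 ± 0.22, limma adjusted p = 0.0182, n = 3 each), the 183rd difference by size among 14218 genes. All 3 injured arrays were below all 3 shams, as in 12.8% of genes, while 10.8% had them all above. Id3 read -0.63, -0.29 and -0.32 in the injured arrays, again below every sham, but its difference of -0.56 ± 0.16 did not pass (adjusted p = 0.0989). Id4 read -0.60, -0.46 and -0.16 in the injured arrays, against 0.26, 0.13 and -0.23 in the shams. Its difference was -0.46 ± 0.15 (adjusted p = 0.147), and injured replicate 3 lay inside the range of the shams. Id2 pointed the other way at 0.38 ± 0.17 (adjusted p = 0.351), with all 3 injured arrays (0.07, 0.30 and 0.47) above the shams (-0.15, -0.01 and -0.12). So 1 of 4 members was called, against 2.67% of all genes (1.98% higher and 0.682% lower). The 3, 6 and 12 h comparisons share the same 3 shams, so a low or high sham moves them together.

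The call of Id1 at 6 h was kept without injured replicate 3 (-1.18, adjusted p = 0.0231) and lost in the other 5 fits that left out 1 array. Without injured replicate 1 or 2, or without the 3, 6 or 12 h sham, its difference stayed between -1.10 and -0.90, at adjusted p from 0.0525 to 0.0956. Against the single 6 h sham it was -0.94 (adjusted p = 0.439). Over all 15 alternatives the adjusted p ran from 0.000512 to 0.439, with 9 calls.

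Besides Id1, endothelial markers were low at 6 h. Of 14 measured (such as Cldn5, a tight junction protein), 5 fell and 2 rose, with a median of -0.36, against -0.02 over all genes. With 1 array left out, 2 to 4 fell and 0 to 1 rose. The mean of that list ran from -0.58 to -0.47 in the injured 6 h arrays, against -0.07 to 0.17 in the early shams. Cldn5 fell by 1.52 ± 0.17 (adjusted p = 0.000209). Meningeal markers had 3 of 10 lower (0 to 4 with 1 array left out) and microglial markers 3 of 9 lower, with list means from -0.69 to -0.12 and from -0.84 to -0.26 in injured arrays, against 0.12 to 0.66 and -0.03 to 0.30 in the shams. Neutrophil markers rose in 3 of 5, with a list mean from 1.09 to 2.44 in the injured arrays, against -1.50 to -0.96 in the shams. The part of these cell types in the fall of Id1 was not tested. Pericyte, astrocyte, oligodendrocyte, neuron and choroid plexus lists had 0 genes called at 6 h by limma, and of 3 erythrocyte genes 1 rose. As the values are centred, no marker can be said to be absent.

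**Figure D2:**
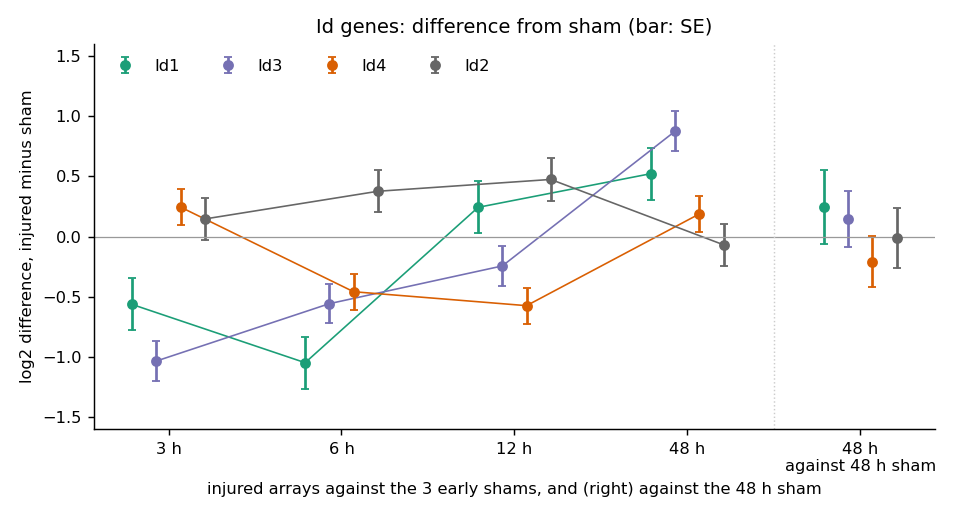
The log2 difference of injured minus sham arrays (vertical axis) is shown for each Id gene at each time against the 3 early shams, and at the right for 48 h against the 48 h sham; bars are SEs of the model. Id1 is lowest at 6 h (-1.05), Id3 at 3 h (-1.03) and Id4 at 12 h (-0.57), while Id2 is highest at 12 h (0.47).

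At 12 h the member that passed was Id4. It read -0.59, -0.55 and -0.43 in the injured arrays, against 0.26, 0.13 and -0.23 in the early shams, without overlap. It fell 1.49-fold (log2 -0.57 ± 0.15, adjusted p = 0.044, n = 3 each). Id1 spread from -0.25 to 0.91 in the injured arrays and Id3 from -0.55 to 0.29, so both groups overlapped the shams, with differences of 0.24 ± 0.22 (adjusted p = 0.581) and -0.24 ± 0.16 (adjusted p = 0.44). Without injured replicate 2 the difference of Id1 was -0.07 and that of Id3 was -0.44 (adjusted p = 0.907 and 0.166). Without injured replicate 3 they were 0.51 and -0.02 (adjusted p = 0.106 and 0.949). Id2 read 0.38, 0.04 and 0.73 in the injured arrays, all above the shams, at 0.47 ± 0.17 (adjusted p = 0.144). Thus 1 of 4 members was called, where 4.87% of all genes were. Injured arrays lay wholly below the shams in 11% of genes and wholly above in 10.5%.

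All 4 probe sets of Id4 were lower at 12 h, by -0.82 ± 0.19 to -0.35 ± 0.17. Tested one by one over 20832 probe sets, 1394022_at passed (adjusted p = 0.025) and the other 3 did not (adjusted p from 0.0679 to 0.309), where 3.83% of all probe sets passed. At 6 h 0 of the 4 passed (limma adjusted p from 0.0858 to 0.885), where 2.23% of all probe sets did. The probe sets differed there, with 1375183_at at -0.07 ± 0.13 and the others from -0.68 ± 0.19 to -0.52 ± 0.17. At 3 h, described without a test, 1375183_at was at 0.48 ± 0.13 and the others from 0.06 to 0.22. At 12 h, in 3 of the 4 the injured arrays lay wholly below the shams, as in 11% of genes. That share was not counted over probe sets. The 4 probe sets read 1 gene on the same arrays, so they are not separate support. The call of the gene was lost without injured replicate 1 or 2 or without the 3 or 6 h sham (-0.56 to -0.47, adjusted p from 0.0868 to 0.173), and against the single 12 h sham it was -0.29 (adjusted p = 0.715). It was made in 8 of 16 alternatives, with adjusted p from 0.0176 to 0.715. Astrocyte markers, the cells Id4 is known from, had 2 of 11 lower and 1 higher at 12 h, and their mean ran from -0.10 to -0.03 in the injured arrays, against -0.03 to 0.02 in the early shams. The filament gene Gfap of astrocytes was higher by 1.16 ± 0.23 (adjusted p = 0.0123), a call lost without injured replicate 2 (1.06, adjusted p = 0.0568) or without the 6 h sham (1.08, adjusted p = 0.0646). Neuronal markers had 2 of 10 lower, with a list mean from -0.12 to -0.05 in the injured arrays, against 0.10 to 0.20 in the shams. Neutrophil markers rose in 4 of 5, with a list mean from 2.20 to 2.59, against -1.50 to -0.96. Microglial markers fell in 3 of 9 (-0.63 to -0.31, against -0.03 to 0.30), with P2ry12, a receptor of resting microglia, at -2.62 ± 0.29 (adjusted p = 0.000221). Meningeal markers fell in 4 of 10 (-0.89 to 0.02, against 0.12 to 0.66), with 0 called without injured replicate 2, the 6 h sham or the 12 h sham. Endothelial markers fell in 3 of 14 and rose in 1 (-0.51 to 0.09, against -0.07 to 0.17), and of the pericyte and erythrocyte lists 1 gene each rose. The choroid plexus list had 0 of 6 genes called by limma, with a list mean from 0.08 to 0.98, against -0.08 to -0.04. Its median difference was 0.15, and Ttr was at 2.60 ± 1.19 (adjusted p = 0.235). Without injured replicate 2, 3 neutrophil markers rose, 2 microglial, 2 endothelial, 2 astrocyte and 1 neuronal markers fell, and 0 pericyte and erythrocyte genes were called by limma. The part of these cells in the fall of Id4 was not tested.

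**Figure D3:**
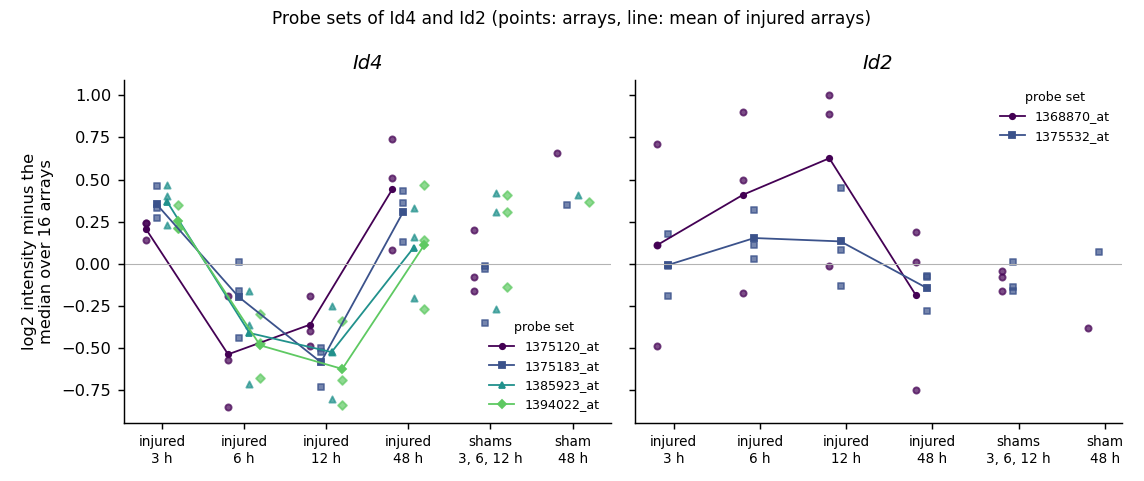
Points are arrays for each probe set of Id4 (left) and Id2 (right), as log2 intensity minus the median over the 16 arrays (vertical axis) by group (horizontal axis); lines join the means of the injured groups. The 4 probe sets of Id4 have lower means at 6 and 12 h than at 3 h, while 1368870_at of Id2 swings more widely than 1375532_at.

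Both probe sets of Id2 had differences above 0 at 6 and 12 h, with a wider spread in 1368870_at. At 12 h 1368870_at read 0.89, -0.01 and 1 in the injured arrays, against -0.16, -0.04 and -0.08 in the early shams (0.72 ± 0.34, adjusted p = 0.28). The second, 1375532_at, read -0.13, 0.08 and 0.45, against -0.14, 0.01 and -0.16 (0.23 ± 0.14, adjusted p = 0.409). Neither was called at 6 or 12 h, and a rise of Id2 was thus not shown at this number of arrays.

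At 48 h the result depended on the control. Id3 read 1.13, 1.01 and 0.92 in the injured arrays, its highest values of the series, and 0.87 in the 48 h sham. Against the early shams (0.04, 0.11 and 0.28) Id3 was 1.84-fold higher (log2 0.88 ± 0.16, adjusted p = 0.00568). Against the 48 h sham the difference was 0.15 ± 0.23 (adjusted p = 0.931), with a 95% interval from -0.35 to 0.65. The 48 h sham itself stood 0.73 ± 0.23 above the early shams in Id3, which did not pass with 1 array (adjusted p = 0.543), in a comparison of controls where 0.00703% of genes were called. The rise over the early shams was called in 13 of 14 alternatives, with adjusted p from 0.00378 to 0.0814, the highest after quantile normalization, where it was 0.51.

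Id1 had the same order of controls and injury at 48 h. It read 0.64, 0.65 and 0.41 in the injured arrays, against 0.32 in the 48 h sham and 0.06, -0.06 and 0.13 in the early shams. The differences were 0.25 ± 0.31 from the 48 h sham (interval -0.41 to 0.91, adjusted p = 0.909) and 0.52 ± 0.22 from the early shams (adjusted p = 0.146). Id4 (0.49, -0.06 and 0.29 injured, against 0.45 in the 48 h sham) and Id2 (-0.13, 0.06 and -0.41 injured, against -0.15) had intervals from -0.66 to 0.25 and from -0.54 to 0.53 against the 48 h sham. None of the 4 was called against that sham, where limma called 0% of genes and 1061 had an unadjusted p under 0.05. Against the early shams 1 of 4 was called, where 9.68% of genes were (6.37% higher). Other cell types moved in the same arrays. Microglial markers rose in 7 of 9 over the early shams (mean 1.13 to 1.74 in the injured 48 h arrays, 0.46 in the 48 h sham and -0.03 to 0.30 in the early shams), pericyte and smooth muscle markers in 2 of 12 (0.31 to 0.40 injured, 0.12 in the 48 h sham, -0.03 to 0.03 in the early shams) and astrocyte markers in 3 of 11 (0.18 to 0.24 injured, 0.02 in the 48 h sham, -0.03 to 0.02 in the early shams). Meningeal markers rose in 2 of 10, and their mean was 0.71 to 1.21 in the injured arrays, 1.04 in the 48 h sham and 0.12 to 0.66 in the early shams. Neutrophil markers rose in 2 of 5 (0.12 to 1.62 injured, -0.40 in the 48 h sham, -1.50 to -0.96 in the early shams), and neuron markers fell in 3 of 10, all 10 being below 0 (-0.27 to 0.04 injured, 0.03 in the 48 h sham, 0.10 to 0.20 in the early shams). With 1 array left out, meningeal calls were 0 in 5 of 6 fits and 2 without injured replicate 3. Microglial calls were then 6 to 7, astrocyte calls 1 to 2, pericyte calls 1 to 3 and neutrophil calls 1 to 3, while 1 neuronal marker fell in 5 fits and 7 fell without injured replicate 3. The part of these cells in the rise of Id3 was not tested.

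Within injured cortex the steps between times use no sham, so they hold any change that the shams share. From 12 to 48 h Id3 rose by 1.12 ± 0.16 (2.17-fold, adjusted p = 0.000811) and Id4 by 0.76 ± 0.15 (1.7-fold, adjusted p = 0.0047), each with all 48 h arrays above all 12 h arrays, as in 13.3% of genes. Of the 4 probe sets of Id4 taken singly, 3 passed (log2 0.74 to 0.89) and 1385923_at did not (0.62 ± 0.20, adjusted p = 0.0557), where 12.3% of all probe sets passed. Both steps were called in all 15 alternatives run, with adjusted p up to 0.0444 for Id3 and 0.048 for Id4. In the same step Id2 was lower at -0.54 ± 0.17 (adjusted p = 0.0515), and it passed without 12 h replicate 2 (-0.72, adjusted p = 0.0193), without 48 h replicate 2 (-0.65, adjusted p = 0.0492), without both (-0.83, adjusted p = 0.0158) and with genes of low SD left out (adjusted p = 0.0411). Over 15 alternatives its adjusted p ran from 0.0158 to 0.178. Id1 differed by 0.28 ± 0.22 (adjusted p = 0.429). It was called without 12 h replicate 2, where the step was 0.59 (adjusted p = 0.0304, from 0.0304 to 0.978 over 15 alternatives). The call of 2 of 4 members stands beside 15.3% of all genes called (8.19% higher and 7.14% lower). Meningeal markers rose in 8 of 10, microglial in 8 of 9, endothelial in 7 of 14 (2 fell) and astrocyte markers in 4 of 11 in the same step, while neutrophil markers fell in 3 of 5. With 1 array left out, 5 to 9 meningeal, 8 microglial, 5 to 8 endothelial and 2 to 4 astrocyte markers rose. The part of these cells in the rise of Id3 and Id4 was not tested. The 48 h sham stood above the early shams too, by 0.73 in Id3, 0.40 in Id4 and 0.28 in Id1, with Id2 at -0.06. The 48 h effect minus the 12 h effect, each against its own control, was 0.39 ± 0.28 in Id3. It was 0.37 ± 0.26 in Id4, 0.003 ± 0.375 in Id1 and -0.48 ± 0.30 in Id2. These values rest on the single 48 h sham.

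Between neighbouring times of injury, Id1 differed most from 6 to 12 h, a step that did not pass. From 6 to 12 h it was 1.29 ± 0.22 higher (2.45-fold), the 22nd largest difference of 14218 genes, with all 12 h arrays above all 6 h arrays (6.48% of genes), yet at an adjusted p of 0.0653 it was not called. In that step limma called 0.0141% of genes and 1249 had an unadjusted p under 0.05. Without 12 h replicate 2 the step of Id1 was 0.98 and was called (adjusted p = 0.0486), and without 12 h replicate 3 it was 1.56 (adjusted p = 0.00525), while over all 15 alternatives the adjusted p ran from 0.00525 to 0.506. From 3 to 6 h, described without a test, Id1 changed by -0.48 ± 0.22 and Id4 by -0.70 ± 0.15, each with all 6 h arrays below all 3 h arrays (12.6% of genes), whereas Id3 went the opposite way by 0.48 ± 0.16 with all 6 h arrays above (13.1%). Id2 differed by 0.23 ± 0.17. The lowest group means were at 3 h for Id3 (the value that chose the family), 6 h for Id1, 12 h for Id4 and 48 h for Id2. For Id4 the 12 h arrays differed from the 6 h arrays by only -0.12 ± 0.15 (limma adjusted p = 0.877). For Id2 the mean of -0.163 at 48 h was close to the 48 h sham at -0.155. An order in time of these 2 members is thus not shown. For Id3 and Id1 the order rests on the 3 h arrays that chose the family, and it was not tested.

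In the order of the 6 groups, neighbours of Id1 stood apart at the low end (6 h, then 3 h, then the early shams) and overlapped from the early shams through 12 h to the 48 h sham. For Id3 the 3 h group stood apart below 6 h, the 6 and 12 h groups and the early shams overlapped in turn, and the 48 h sham and the 48 h injury followed above. For Id4 the order ran from 12 h through 6 h, the early shams and 48 h to 3 h, each overlapping the next. For Id2 every injured group overlapped its neighbours.

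**Figure D4:**
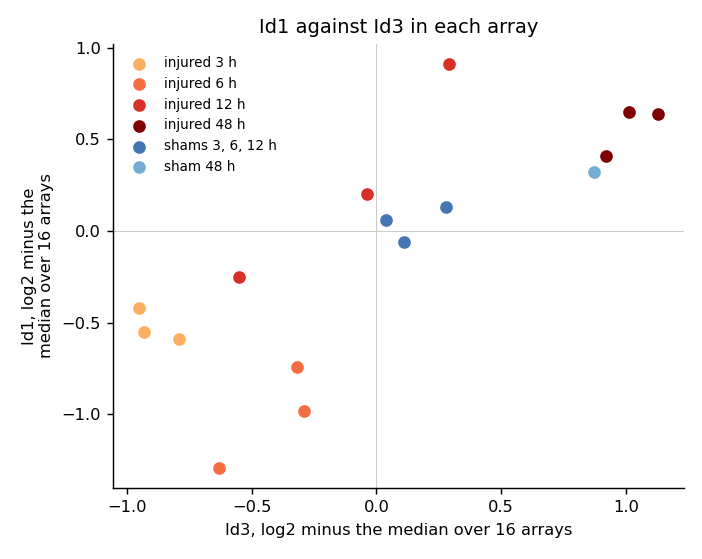
Each point is 1 array, with Id3 on the horizontal and Id1 on the vertical axis, both as log2 intensity minus the median over the 16 arrays. Arrays of 3 and 6 h lie low in both genes and those of 48 h high in both; at 3 h Id3 lies further below its own median than Id1 does, and at 6 h Id1 lies further below.

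Over the 16 arrays Id1 and Id3 ran together (Pearson r = 0.787, Spearman rho = 0.826), and r was 0.837 without the 2 arrays farthest from the median of Id1. These values are a description, since the 3 h arrays and their shams chose the family and arrays of a group share their time. Over the 10 arrays outside that contrast r was 0.802 for Id1 and Id3. It was 0.814 for Id3 and Id4 and -0.772 for Id2 and Id3, where over all 16 arrays these were 0.235 and -0.476. Deviations from group means, which leave the time course out, gave r = 0.884 for Id1 and Id3 over the 15 arrays of groups of 3 (exact permutation p = 0.0325 within groups, two-sided, adjusted over 6 pairs 0.195), so the relation within groups did not pass. Without the 12 h arrays it was 0.649 over 12 arrays. The other 5 pairs lay between -0.397 and 0.109 (adjusted exact permutation p from 0.833 to 0.89). Without the 12 h arrays Id2 and Id3 went from -0.337 to 0.503, and Id1 and Id2 from -0.397 to 0.409. The pairs with Id4 then lay between 0.032 and 0.271. The sign of the relation of Id2 to Id1 and Id3 within groups thus depended on the 12 h arrays.

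The 3 genes most like each member by Pearson r over the 16 arrays were picked as the highest of 14217, so their values are high by choice. For Id1 they were Vkorc1, which recycles vitamin K (0.929), Pxk (0.906) and the protease inhibitor gene Serpinb6a (0.898). For Id3 they were the proteoglycan gene Bgn (0.904), Tnfaip8l2 (0.898) and the filament gene Vim (0.885). For Id4 they were Tpgs2, Ntan1 and Mettl23 (0.916 to 0.926), and for Id2 Kctd14, the chemokine gene Cxcl10 and the receptor gene Tnfrsf9 (0.815 to 0.827). Among members, Id3 ranked 72nd for Id1 and Id1 ranked 166th for Id3.

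Genes of BMP and TGF-beta signalling were counted at 6 and 12 h. Their RNA does not measure the activity of the pathway. Of 50 measured genes of BMP and TGF-beta signalling, 3 fell and 0 rose at 6 h (background 0.682% lower), with a median of -0.03 against -0.02 over all genes. The extracellular inhibitor gene Fst fell by 0.91 ± 0.18 (adjusted p = 0.0133), at -0.55 to -0.12 in the injured arrays against 0.12 to 0.83 in the shams. The BMP antagonist gene Nbl1 fell by 0.44 ± 0.09 (adjusted p = 0.0151). Acvrl1, an endothelial receptor of the BMP family, fell by 0.39 ± 0.09 (adjusted p = 0.0463) with injured arrays at -0.51 to -0.33 against -0.19 to 0.09 in the shams. With 1 array left out, Fst was called in 3 of 6 fits (adjusted p from 0.00165 to 0.0843), Nbl1 in 2 (0.0254 to 0.0768) and Acvrl1 in 1 (0.0429 to 0.193).

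At 12 h 2 of the 50 rose and 1 fell (background 3.49% higher and 1.38% lower). The type I receptor gene Acvr1 rose by 0.60 ± 0.14 (adjusted p = 0.0246) and the signal carrier Smad1 by 0.50 ± 0.11 (adjusted p = 0.0211), while the ligand gene Bmp6 fell by 0.32 ± 0.09 (adjusted p = 0.0493). Bmp6 read -0.10, -0.29 and -0.15 in the injured arrays, below all 3 shams at 0.13, 0.12 and 0.17. Without injured replicate 2, 0 of the 50 were called at 12 h by limma, with Acvr1 at 0.45 (adjusted p = 0.11), Smad1 at 0.37 (adjusted p = 0.0832) and Bmp6 at -0.27 (adjusted p = 0.204). Each of the 3 calls was also lost without the 3 or the 6 h sham (adjusted p from 0.0814 to 0.125), that of Acvr1 without injured replicate 1 (adjusted p = 0.0624), and that of Bmp6 without injured replicate 3 (adjusted p = 0.0547) or the 12 h sham (adjusted p = 0.115). The feedback inhibitors Smad6 and Smad7, which BMP signalling also induces, were not called at 6, 12 or 48 h (Smad7 at -0.04 ± 0.19 at 6 h and 0.22 ± 0.19 at 12 h, or -0.11 at 12 h without injured replicate 2, and Smad6 between -0.05 and 0.02). Bmp4 was at -0.33 ± 0.15 and -0.40 ± 0.15 at 6 and 12 h (adjusted p = 0.36 and 0.164).

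Id proteins act through helix-loop-helix partners. Of 32 measured helix-loop-helix and Notch genes, 0 were called at 6 h by limma (2.67% of all genes) and 1 at 12 h (4.87%). That was Notch1 (0.51 ± 0.12, adjusted p = 0.0301, from 0.0154 to 0.136 with 1 array left out), where Tcf4, the E protein gene, was at -0.15 ± 0.10 and -0.08 ± 0.10 and Hes1, a Notch effector, at 0.26 ± 0.30 and 0.70 ± 0.30. Hes1 read 0.04, 1.58 and 0.02 in the injured 12 h arrays, and without replicate 2 its difference was 0.18 (adjusted p = 0.607). Of 18 genes reported as targets of Id proteins, 1 rose at 6 h, the transcription factor gene Ets1 (0.82 ± 0.18, adjusted p = 0.028, from 0.0208 to 0.138 with 1 array left out), where 1.98% of all genes rose, and 0 were called at 12 h, where 4.87% were.

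**Figure D5:**
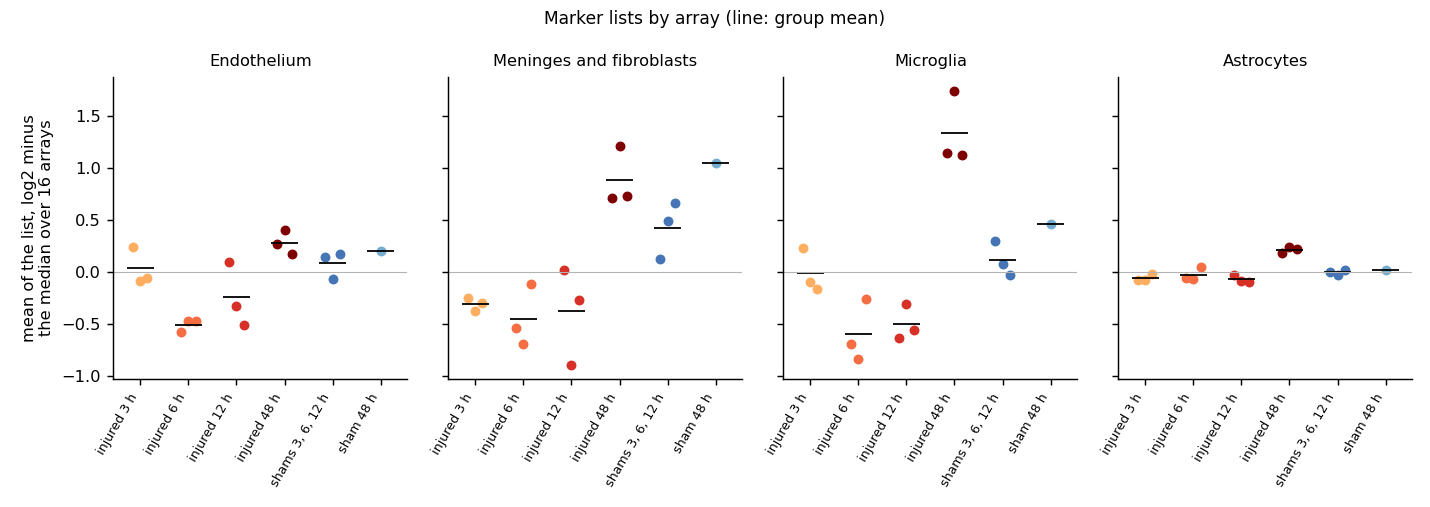
Points are arrays, given as the mean over the measured genes of a marker list of the log2 intensity minus the median over 16 arrays (vertical axis), by group (horizontal axis); lines are group means. Endothelial, meningeal and microglial lists lie lowest at 6 or 12 h, the microglial list is highest at 48 h, and the astrocyte list stays within -0.10 to 0.24.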

How the data were processed

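RNA was measured on 16 arrays. The deposited values are taken as log2 intensities; the submitters' processing notes name RMA, which summarises probe sets after background correction and quantile normalization, and the log base is not given in the sources used here. Each of the 31099 probe sets had a median of 0 over the 16 arrays. The 20832 probe sets with 1 gene symbol were used (436 with several were left out), symbols were updated by gene identifier for 20764, and probe sets of a gene were averaged (14218 genes). The number of arrays limits the precision.

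The 6 groups entered 1 linear model (limma 3.58.1, R 4.3.3) with 10 residual degrees of freedom. P-values were adjusted over all genes (Benjamini and Hochberg) and called under 0.05. The single 48 h sham has no spread of its own, and that of the groups of 3 was used for it. The fit was tested on simulated data. The members and lists were chosen with earlier results of these data known. Genes named are the 4 members, the 3 genes most like each, list members called at 6 or 12 h, and a fixed panel. A permutation p planned for correlations over 16 arrays is not reported, since the 3 h arrays chose the family. Alternatives were other probe set rules, quantile normalization, median centring, a filter on SD, a robust prior, other controls, 2 groups in the model, leaving out arrays and a replicate block; for list genes, leaving out arrays was added after seeing the data. Promoter sequences are from RefSeq (GRCr8).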

Additional observations from a re-analysis of the deposited data

How the results depend on the processing

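Of 504 values of single members under an alternative, 13 had a sign opposite to the reported one, and all 13 were of differences that were not called, such as Id1 at 12 h (-0.07 without injured replicate 2) and Id3 at 48 h against its sham (-0.19 with quantile normalization). The number of members called moved as follows. At 6 h it was 2 with quantile normalization and 2 with only the 2 groups in the model (Id3 joined), and 0 with the single 6 h sham. At 12 h it was 0 with the probe set of widest spread, 0 with 2 groups in the model, 0 with the single 12 h sham and, added after seeing the data, 0 without 12 h replicate 2 and 48 h replicate 2. At 48 h against the early shams it was 0 with quantile normalization and 2 with 2 groups in the model, and with all 4 shams as control at 48 h it was 1 in place of 0. From 6 to 12 h it was 1 with quantile normalization and 1 with genes below the 0.25 quantile of SD left out, and with that filter it was 3 in place of 2 from 12 to 48 h (Id2 joined). Leaving out 1 array gave 0 to 1 at 6 h, 0 to 1 at 12 h, 0 to 1 from 6 to 12 h and 2 to 4 from 12 to 48 h. All genes called ranged from 70 to 918 at 6 h (379 as reported), from 77 to 1230 at 12 h (692), from 0 to 963 at 48 h against its sham (0), from 482 to 2054 against the early shams (1377), from 0 to 45 from 6 to 12 h (2) and from 388 to 2563 from 12 to 48 h (2180). With a replicate block, 0 members were called from 6 to 12 h and 2 from 12 to 48 h, as without it. Replicate numbers did not pair the arrays (correlations of deviations from -0.188 to 0.257 over 18 pairs of the same number). The cause of these shifts was not tested.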

Other observations

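The step from 12 to 48 h held more called genes of the upstream pathway than the 6 or 12 h comparison. The same was true of all genes, of which 15.3% were called in this step, against 2.67% at 6 h and 4.87% at 12 h. Of 50 genes of BMP and TGF-beta signalling, 6 rose and 7 fell, against 8.19% and 7.14% of all genes. Without 12 h replicate 2 these were 5 and 5, without 48 h replicate 2 they were 4 and 3, without 48 h replicate 1 they were 4 and 4, and without 12 h replicate 3 they were 4 and 7. Bmp6 rose by 0.38 ± 0.09 (limma adjusted p = 0.0115), while Smad1 fell by 0.50 ± 0.11 (adjusted p = 0.00988) and Acvr1 by 0.54 ± 0.14 (adjusted p = 0.0192). The injured 12 h arrays enter both this step and the 12 h difference from the shams, for which these 3 genes were named, so the opposite directions are not independent. Without 12 h replicate 2 the steps were 0.32 for Bmp6, -0.37 for Smad1 and -0.40 for Acvr1 (adjusted p = 0.046, 0.0344 and 0.0729). The calls of Bmp6 and Smad1 were kept in all 6 fits that left out 1 array, and that of Acvr1 in 2 of 6 (adjusted p from 0.00163 to 0.0732). The Notch effector gene Hes1 fell by 0.99 ± 0.30 (adjusted p = 0.0405) in the same step, in which Id3 and Id4 rose. It read -0.55, -0.42 and -0.35 in the 48 h arrays and 0.04, 1.58 and 0.02 in the 12 h arrays. Without 12 h replicate 2 the step was -0.47 (adjusted p = 0.0316), and without any 1 of the 48 h arrays it was not called (adjusted p from 0.0612 to 0.11).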
